A study of Mus musculus with 2 samples.

Results

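The 6 genes Ms4a3, Trem3, Hp, Anxa3, Gstm1 and Fcnb were followed through mouse LSK cells, the bone marrow cells without lineage markers that carry Sca1 and c-Kit, a fraction that holds blood stem cells and multipotent progenitors. They were taken by symbol from the 31053 genes of the deposited matrices. The set was chosen by UMI levels in these same libraries, as granulocyte progenitor genes higher after irradiation, so their direction is a description, and nothing is read from how many of them were higher. The name does not describe Fcnb, which hardly differed between the libraries. Over all cells Gstm1 was higher by less than 2-fold, and the other 4 genes by at least 2-fold.

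The single-cell libraries were made with the 10x Genomics 3' v2 method, which counts each captured transcript once by a unique molecular identifier (UMI). There was 1 library from control C57BL/6J mice and 1 from C57BL/6J mice whose whole body had received 5.0 Gy, taken at day 15. Both came from animals 6 to 8 weeks old and sorted on the same antibodies and a viability dye. How many mice went into a library was not stated. With 1 library in each group there is no replicate error and no test, and every interval below is a 95% interval for counting error only. The control matrix held 7686 barcodes and 139274656 UMIs and the irradiated one 5596 barcodes and 165119247 UMIs, with 16 barcode sequences in both. The filters kept 7190 control cells (median depth 16085 UMIs) and 5128 irradiated cells (29671). Because of this gap, shares of cells were taken at a common depth of 5000 UMIs per cell, reached by random thinning.

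Neutrophils arise from multipotent progenitors through granulocyte-monocyte progenitors and promyelocytes, and the genes for their granule contents come on in waves. Genes of the primary (azurophil) granules, such as Mpo and Elane, are transcribed first, and those of the later granules, such as Ltf and Camp, follow as the cell matures. The set holds genes of several kinds: Ms4a3, a membrane-spanning protein gene much used to mark granulocyte-monocyte progenitors; Trem3, a receptor of the TREM family that signals through the adapter Tyrobp; Hp, which encodes haptoglobin, the carrier of free haemoglobin that neutrophils store in granules; Anxa3, an annexin that binds phospholipid in the presence of calcium and sits on neutrophil granules; Gstm1, a glutathione S-transferase of the mu class; and Fcnb, which encodes ficolin B, a recognition protein of the lectin complement pathway made by myeloid cells.

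All 6 are protein-coding in GENCODE M21 on GRCm38. Ms4a3 (ENSMUSG00000024681) lies at chr19:11629496-11640851 on the minus strand. Trem3 (ENSMUSG00000041754) lies at chr17:48247777-48258841 on the plus strand. Hp (ENSMUSG00000031722) lies at chr8:109575128-109579172 on the minus strand. Anxa3 (ENSMUSG00000029484) lies at chr5:96793339-96845966 on the plus strand. Gstm1 (ENSMUSG00000058135) lies at chr3:108012255-108017973 on the minus strand, and Fcnb (ENSMUSG00000026835) at chr2:28076378-28084885 on the minus strand.

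Promoter sequence from RefSeq (GRCm38.p6) was matched for 3 of the 6 genes, which are also the 3 whose values turn the account: Ms4a3, the gene with the highest ratio of the set, and Gstm1 and Fcnb, the genes that did not follow it. Each window runs from 250 bases before to 50 bases after the annotated start, and the 250 bases before the start are printed 5′ to 3′ on the gene's own minus strand, with the last 30 bases of the window added for Ms4a3. Capitals mark matches, on either strand, to TTGCNNAA, a core of the sites bound by the C/EBP factors, or to GAGGAA, a core of the sites bound by PU.1.
Ms4a3, chr19:11640852-11641101: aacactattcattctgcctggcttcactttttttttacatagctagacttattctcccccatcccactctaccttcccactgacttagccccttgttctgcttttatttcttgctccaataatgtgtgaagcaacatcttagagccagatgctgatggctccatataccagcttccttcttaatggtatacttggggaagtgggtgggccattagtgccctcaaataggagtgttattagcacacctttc
Ms4a3, chr19:11640802-11640831: tccactggacttgctGAGGAATTGCACAAa
Gstm1, chr3:108017974-108018223: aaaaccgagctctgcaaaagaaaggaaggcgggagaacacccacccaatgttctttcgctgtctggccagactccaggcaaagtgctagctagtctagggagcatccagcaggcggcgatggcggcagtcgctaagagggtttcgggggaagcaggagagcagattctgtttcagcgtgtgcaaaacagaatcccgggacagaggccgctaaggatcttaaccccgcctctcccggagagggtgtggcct
Fcnb, chr2:28084879-28085128: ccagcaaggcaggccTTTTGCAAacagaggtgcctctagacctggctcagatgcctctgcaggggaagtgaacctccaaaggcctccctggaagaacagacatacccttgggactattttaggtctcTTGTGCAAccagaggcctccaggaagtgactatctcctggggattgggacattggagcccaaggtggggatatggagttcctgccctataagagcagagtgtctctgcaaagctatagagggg
The Ms4a3 window held GAGGAA at bases 36 to 41 after the start, counted from 1 at the first transcribed base, and TTGCACAA directly behind it at bases 42 to 49. The Fcnb window held 2 C/EBP matches, TTTTGCAA at -235 to -228 and TTGTGCAA at -123 to -116 relative to the start, both read on the opposite strand. The printed Gstm1 window held neither motif. A search for TGTGGT, the core bound by RUNX factors, found 1 match, on the opposite strand at bases 27 to 32 after a second Gstm1 start at 108017818, which is not printed. Among 32851 mouse promoter windows of this length, 10.8% held the C/EBP core, 28.3% the PU.1 core, 16.8% the RUNX core and 2.92% both of the first named. The 2 matches in the Ms4a3 window are adjacent and do not overlap, and a match is a run of letters, not a measured binding site.

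Over all kept cells, 4 of the 6 genes were at least 2-fold higher in the irradiated library (1.09% of the 5250 genes with a mean level of at least 20 CPM were, CPM being the UMIs of a gene scaled to a common library total). The ratios fell from Ms4a3, with the highest, through Trem3, Hp and Anxa3 to Gstm1 and Fcnb. All log2 ratios are irradiated over control CPM, and the median over those 5250 genes was 0.02.

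Ms4a3 stood at 25.8 CPM in the control library (3569 UMIs) and 385 CPM in the irradiated library (63072 UMIs). That is a 14.9-fold difference, for a log2 ratio of 3.90 (3.85 to 3.95), at rank 3 of the 5250 genes. At 5000 UMIs per cell, 3.09% of control cells and 38.1% of irradiated cells held a Ms4a3 UMI (7.43% and 59.5% before thinning). The mean in thinned cells with a UMI was 2.40 in control and 3.74 in irradiated cells.

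Trem3 stood at 3.88 CPM among control and 37.3 CPM among irradiated cells, for a log2 ratio of 3.26 (3.14 to 3.39). Its mean over the libraries, 20.6 CPM, was just above the 20 CPM at which genes were ranked, and its ratio had rank 5. The share of thinned cells with a Trem3 UMI was 0.884% in control and 10.2% in irradiated cells (3.18% and 28.5% before thinning). Hp stood at 12.4 CPM among control and 95.5 CPM among irradiated cells, for a log2 ratio of 2.94 (2.87 to 3.01), at rank 7. Thinned cells with a Hp UMI made up 1.97% of control and 18.3% of irradiated cells (4.74% and 34.7% before thinning). Thinned cells with a UMI held a mean of 1.24 and 1.32 Trem3 UMIs, and 1.74 and 1.95 Hp UMIs, in control and irradiated cells. At such sparse counts, more cells with the transcript and more transcript per cell cannot be told apart.

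Anxa3 stood at 21.2 CPM among control and 77.9 CPM among irradiated cells, for a log2 ratio of 1.88 (1.82 to 1.94), with a UMI in 5.36% and 20.04% of thinned cells (17.2% and 44.1% before thinning). Gstm1 stood at 53.8 and 86.7 CPM, for a log2 ratio of 0.69 (0.65 to 0.73). The share of thinned cells with a Gstm1 UMI was 25.3% in control (24.3 to 26.3) and 26.3% in irradiated cells (25.1 to 27.5), intervals that overlap, so its transcripts were higher in number while about the same share of cells carried one (58.5% and 63.96% before thinning). The mu class genes are near copies of each other, and how reads shared between them were counted is not given in the sources used here, so the Gstm1 level is uncertain to that extent.

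Fcnb was rare in both libraries, at 0.463 CPM (64 UMIs) in control and 0.482 CPM (79 UMIs) in irradiated cells. Its log2 ratio of 0.06 had an interval from -0.44 to 0.56, and its mean was below the level at which genes were ranked. In control 2 cells held 65.6% of all Fcnb UMIs and 10 cells held 93.8%, out of 14 cells with any, and 8 of those 10 fell in the later of the neutrophil-primed clusters described next. In the irradiated library 52 cells held a Fcnb UMI and the top 10 held 46.8%. The other genes did not rest on so few cells: the top 10 cells held between 2.04% (Gstm1) and 21.3% (Trem3) of a gene's UMIs in control and between 2.03% (Anxa3) and 3.48% (Hp) in the irradiated library.

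To see which cells carried the genes, the kept cells were clustered with the 6 genes left out, and clusters were named from marker genes of each lineage. Of the 18 clusters, 3 held most UMIs of Ms4a3, Trem3, Hp and Anxa3 in both libraries: the cells outside them held between 16.8% (Hp) and 47.9% (Anxa3) of a gene's UMIs in control and between 6.89% (Hp) and 14.6% (Ms4a3) in the irradiated library. An earlier neutrophil-primed cluster met its list through Ctsg, Mpo and Cebpa, and its leading genes also held Ung, Hells, Uhrf1 and Gins2, genes of DNA replication and repair (353 control and 577 irradiated cells). A later neutrophil-primed cluster was led by S100a8, S100a9 and Elane, with Cebpe, Lcn2 and Prtn3 (36 and 434 cells). Over each whole library, 10 cells held 87.9% of S100a8 and 87.3% of S100a9 UMIs in control, and 77.6% and 85.1% in irradiated cells. The level of both genes thus rested on few cells. A Ly6c2-led cluster met the monocyte and dendritic marker list through Ly6c2, F13a1, Ccr2, Ly86 and Irf8, and also had Elane, Mpo and Ctsg among its leading genes (130 and 694 cells). The clusters were drawn from genes that themselves differ between the libraries, so each name means cells like that type by their markers, and these cell numbers are given as the base of each value and not as a result.

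Among the 3 myeloid clusters, Ms4a3, Trem3, Hp and Anxa3 had the same order in both libraries: lowest in the earlier neutrophil-primed, higher in the Ly6c2-led and highest in the later neutrophil-primed cluster. In control cells Ms4a3 stood at 14.1 CPM in the earlier cluster, 227 CPM in the Ly6c2-led cluster and 1084 CPM in the later cluster, and in irradiated cells at 242, 666 and 1432 CPM. Trem3 stood at 6.24, 28.4 and 161 CPM in the same 3 control clusters and at 21.6, 76.6 and 138 CPM in the irradiated ones. The step from the earlier to the later cluster was steeper in control than in irradiated cells for both genes.

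Hp stood at 14.8, 147 and 392 CPM in the earlier, Ly6c2-led and later control clusters and at 38.6, 247 and 306 CPM in the irradiated ones. Anxa3 stood at 50.1, 130 and 282 CPM in control and at 63.9, 168 and 222 CPM in irradiated clusters. For both genes the irradiated level was above the control level in the earlier and the Ly6c2-led cluster and below it in the later cluster. Of all Hp UMIs, the Ly6c2-led cluster held 49.94% in control and 50.03% in the irradiated library, while its share of Anxa3 UMIs was 26.0% and 41.8%.

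**Figure D1:**
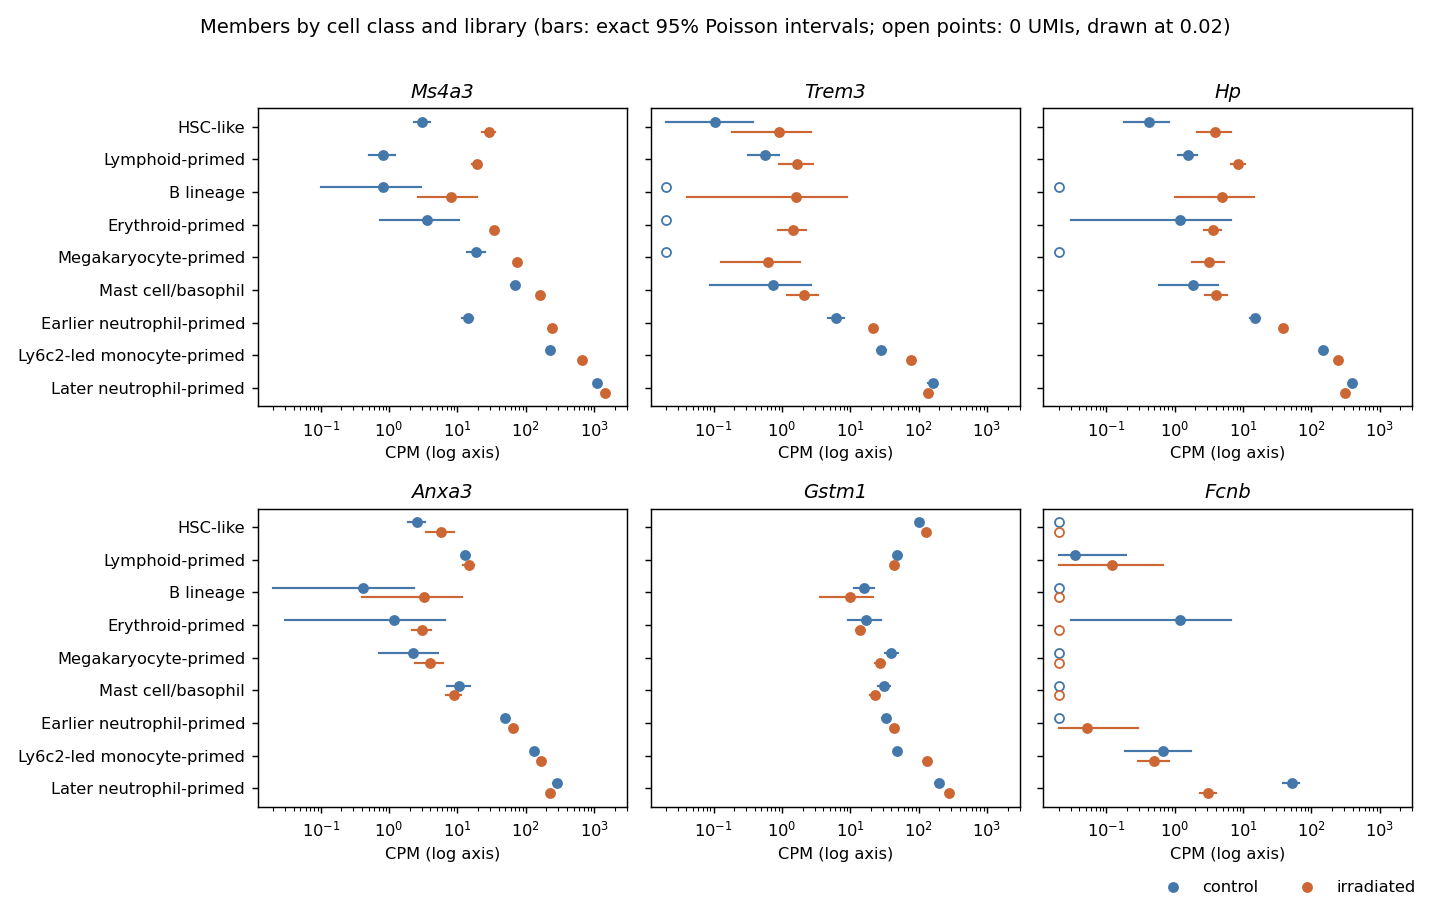
CPM of each gene (log axis) in 9 cell classes of the control and irradiated libraries, with exact 95% Poisson intervals as bars and open points for classes with 0 UMIs, drawn at 0.02. Ms4a3, Trem3, Hp and Anxa3 are highest in the later neutrophil-primed cluster of both libraries, Gstm1 is also high in the HSC-like cells (101 and 130 CPM), and Fcnb is highest in the later cluster (51.0 and 3.07 CPM).

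Gstm1 had another distribution. In control cells it was higher in HSC-like cells, a class with Hlf, Mecom, Procr and Mllt3 among its markers, at 101 CPM (96.9 to 106) than in the earlier neutrophil-primed (33.0 CPM) or the Ly6c2-led cluster (48.9 CPM), and it stood at 202 CPM in the later neutrophil-primed cluster. The HSC-like cells held 26.2% of all control Gstm1 UMIs and 3.02% of irradiated ones. The neutrophil-primed clusters together held 7.01% in control and 44.8% in the irradiated library. In irradiated cells Gstm1 stood at 43.7 CPM in the earlier, 133 CPM in the Ly6c2-led and 282 CPM in the later cluster, and at 130 CPM (118 to 143) in HSC-like cells.

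Within the neutrophil-primed class as a whole, 4 of the 6 genes were at least 2-fold higher in irradiated cells (1.42% of genes measured there were), but the class does not hold the same cells in both libraries. Ms4a3 stood at 132 and 839 CPM, Trem3 at 23.4 and 80.0 CPM, Hp at 56.6 and 173 CPM, and Gstm1 at 51.6 and 163 CPM in control and irradiated cells of the class. Most control cells of the class belonged to the earlier cluster (353 of 389), against 577 of 1011 irradiated cells. With other clustering or cell filters the count for the class ranged from 0 to 5, and it was 0 with all deposited barcodes. The clusters were therefore compared one by one.

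In the earlier neutrophil-primed cluster, 3 of the 6 genes were at least 2-fold higher (0.7% of genes with a mean there of at least 20 CPM were). Trem3 was among the 3, although its mean there was below 20 CPM. Ms4a3 had a log2 ratio of 4.10 (3.84 to 4.36), Trem3 of 1.79 (1.39 to 2.22) and Hp of 1.38 (1.11 to 1.66), while Anxa3 with 0.35 (0.19 to 0.51) and Gstm1 with 0.41 (0.21 to 0.60) were less than 2-fold higher. The share of thinned cells with a Ms4a3 UMI was 3.98% (2.19 to 6.58) in control and 43.2% (39.0 to 47.3) in irradiated cells of this cluster, and 11.6% and 69.0% before thinning. The 4 genes Mpo, Elane, Prtn3 and Ctsg summed to 2650 CPM among control and 4523 CPM among irradiated cells of the cluster, so the cells also differed in these granule genes, and the part of that difference in the Ms4a3 ratio was not tested here.

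In the Ly6c2-led cluster 3 of the 6 genes were at least 2-fold higher (0.45% of genes measured there were), and they were Ms4a3, Trem3 and Gstm1. The log2 ratios were 1.55 (1.47 to 1.64) for Ms4a3, 1.43 (1.21 to 1.67) for Trem3 and 1.45 (1.27 to 1.62) for Gstm1. Hp with 0.75 (0.65 to 0.85) and Anxa3 with 0.37 (0.26 to 0.48) were higher by less. The 4 granule genes summed to 8409 and 11834 CPM in control and irradiated cells of this cluster.

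In the later neutrophil-primed cluster 0 of the 6 genes were at least 2-fold higher (0.59% of genes measured there were). Ms4a3 had a log2 ratio of 0.40 (0.32 to 0.49) and Gstm1 of 0.48 (0.29 to 0.68), whereas Trem3 with -0.22 (-0.44 to 0.00), Hp with -0.36 (-0.50 to -0.21) and Anxa3 with -0.34 (-0.51 to -0.17) were lower. Fcnb was lower by far, at 51.0 CPM among control and 3.07 CPM among irradiated cells, for a log2 ratio of -4.06 (-4.60 to -3.51). The control side of the cluster rests on 36 cells, and 10 of them held at least 1000 CPM of Camp, a gene of the later granules. Only 1 of 434 irradiated cells did. Whether this reflects a difference in maturity was not tested.

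Those 10 control cells stood at 1386 CPM for Hp, 313 CPM for Trem3 and 380 CPM for Fcnb. Gstm1 was lower in them, at 93.0 CPM, than in the other 26 control cells, at 214 CPM. Without the cells high in Camp, which were singled out after their values were seen, the later cluster gave log2 ratios of 0.15 (-0.03 to 0.33) for Hp, -0.06 (-0.30 to 0.19) for Trem3 and -2.26 (-3.19 to -1.21) for Fcnb, and Anxa3 stayed lower at -0.35 (-0.53 to -0.18).

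**Figure D2:**
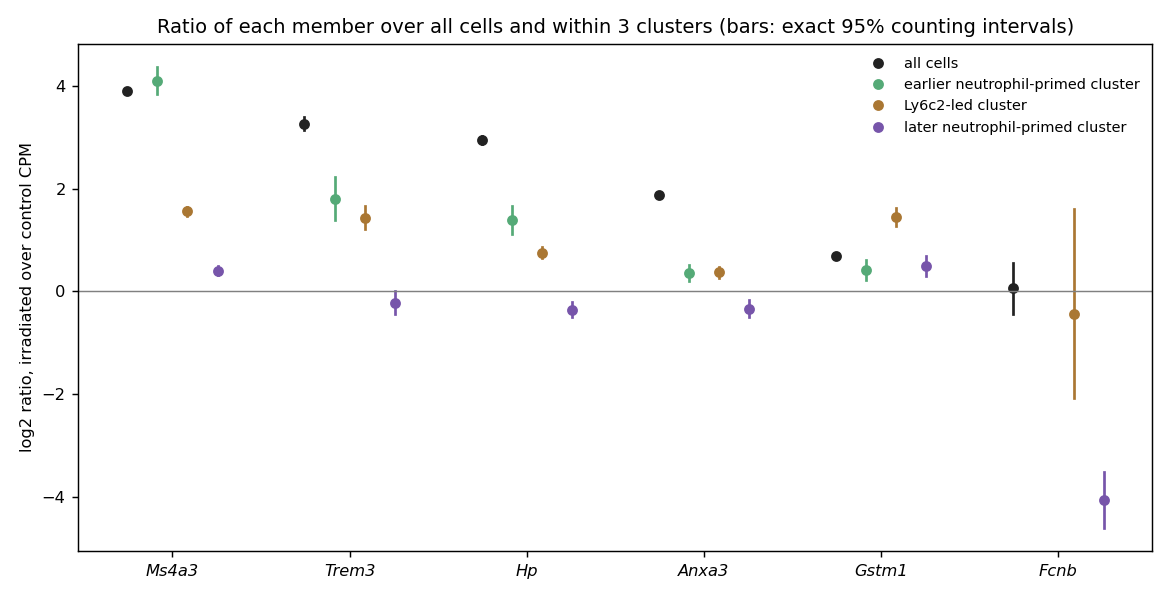
Log2 ratio of irradiated over control CPM (vertical axis) for each gene over all cells and within 3 clusters, with exact 95% counting intervals as bars. Over all cells Ms4a3 is at 3.90 and Fcnb at 0.06, while in the later neutrophil-primed cluster Ms4a3 is at 0.40 and Trem3, Hp, Anxa3 and Fcnb are below 0; Fcnb is not drawn for the earlier cluster, where control had 0 UMIs.

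The ratios over all cells hold both a different mix of clusters and different levels within clusters. Weighting each control cluster's level by the irradiated share of UMIs gave 183 CPM for Ms4a3, between the observed 25.8 and 385 CPM. The same weighting gave 26.3 CPM for Trem3 (observed 3.88 and 37.3), 78.8 CPM for Hp (12.4 and 95.5) and 71.6 CPM for Anxa3 (21.2 and 77.9). Between the weighted control level and the irradiated level, log2 ratios of 1.07 for Ms4a3, 0.50 for Trem3, 0.28 for Hp and 0.12 for Anxa3 remained. Gstm1 came to 60.9 CPM (53.8 and 86.7), with 0.51 remaining of 0.69. Fcnb came to 6.34 CPM, above both observed values of 0.463 and 0.482, since the few control cells of the later cluster carry its high level. The opposite weighting, irradiated levels at the control mix, put more of each ratio into level for Ms4a3, Trem3, Hp and Anxa3 and less for Gstm1: against control it gave log2 ratios of 2.12 for Ms4a3 (112 CPM), 1.28 for Trem3 (9.40 CPM), 0.94 for Hp (23.8 CPM), 0.41 for Anxa3 (28.2 CPM) and 0.15 for Gstm1 (59.7 CPM). How much of a ratio falls to mix or to level thus depends on the order of weighting. Both are arithmetic on 18 clusters, some with few control cells, and neither is an estimate of cell numbers in the marrow.

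**Figure D3:**
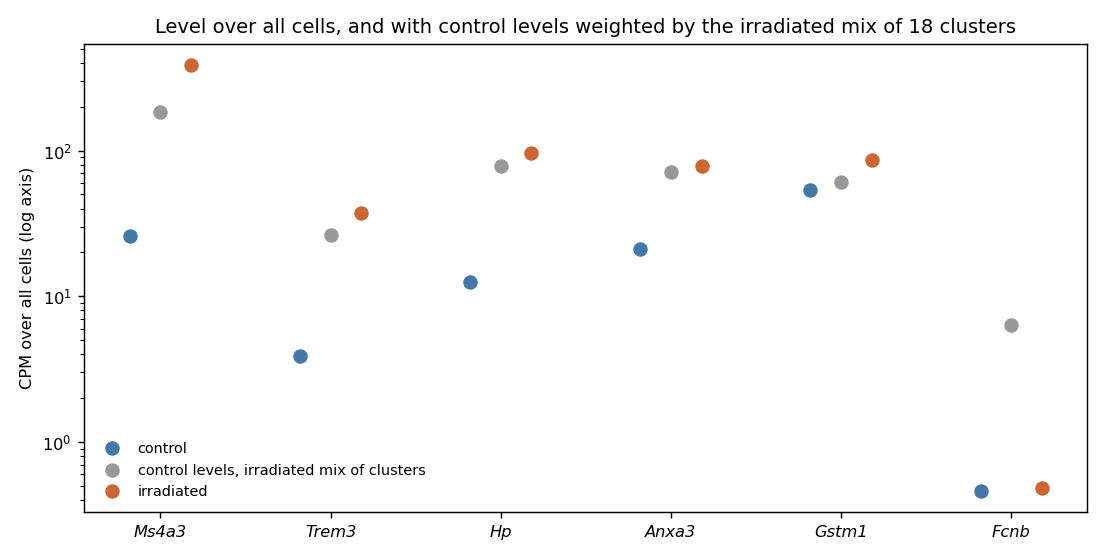
CPM over all cells (log axis) of each gene in the control library, in the irradiated library, and as computed from control cluster levels weighted by the irradiated mix of 18 clusters. For Hp and Anxa3 the computed level (78.8 and 71.6) sits near the irradiated one (95.5 and 77.9), for Ms4a3 (183) below it, and for Fcnb (6.34) above both libraries.

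The genes were also followed across cells ordered by the granule genes alone. Thinned cells were placed in 5 bands by their summed UMIs of Mpo, Elane, Prtn3 and Ctsg, from 0 through 1 to 3, 4 to 15 and 16 to 63 to 64 or more. The highest band held 55 control and 704 irradiated cells, and their median granule UMIs were alike, 89 and 92 of 5000. In this band 0 of the 6 genes were at least 2-fold higher in irradiated cells (0.358% of genes measured there were).

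Ms4a3 stood at 884 CPM among control and 1263 CPM among irradiated cells of the highest band, for a log2 ratio of 0.52 (0.45 to 0.58), and 92.7% and 97.9% of these cells held a UMI (98.2% before thinning in control). Trem3 stood at 103 and 128 CPM, Hp at 297 and 340 CPM and Anxa3 at 234 and 219 CPM there, with log2 ratios of 0.32 (0.12 to 0.53), 0.19 (0.08 to 0.31) and -0.09 (-0.23 to 0.04). Gstm1 stood at 158 and 268 CPM, for a log2 ratio of 0.76 (0.61 to 0.92), and Fcnb at 26.4 and 2.21 CPM, for a log2 ratio of -3.58 (-4.11 to -3.04). Among cells with the most granule transcripts the libraries thus differed most in Fcnb and Gstm1. Fcnb was lower in the irradiated library, and Gstm1 was higher by less than 2-fold. The Fcnb value rests on few control cells: 14.5% of the 55 held a UMI before thinning. Over the whole control library 2 cells held 65.6% of all Fcnb UMIs. Camp was also higher among control cells of this band (490 CPM) than among irradiated ones (15.4 CPM). The band was not redone without the cells high in Camp, so their part in the Fcnb difference was not tested.

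In the band of 16 to 63 granule UMIs, 2 of the 6 genes were at least 2-fold higher (0.301% of genes measured there were). Ms4a3 stood at 97.0 and 453 CPM, for a log2 ratio of 2.22 (2.14 to 2.31), and was found in 17.3% of control and 67.6% of irradiated thinned cells (39.6% of control cells before thinning). Trem3 stood at 16.7 and 45.0 CPM, for a log2 ratio of 1.43 (1.22 to 1.64). Hp with 0.73 (0.62 to 0.84), Gstm1 with 0.59 (0.46 to 0.72) and Anxa3 with 0.27 (0.17 to 0.36) were higher by less. The band is wide and its cells were not alike: the median granule sum was 23 in control and 33 in irradiated cells, and the part of this in the ratios was not tested.

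Below 16 granule UMIs the genes went separate ways. Ms4a3 was at least 2-fold higher in irradiated cells of the bands of 0, 1 to 3 and 4 to 15 (2.12%, 1.36% and 0.422% of those genes whose mean there reached 20 CPM were, a level Ms4a3 itself reached only in the band of 4 to 15). Hp was also more than 2-fold higher in the bands of 1 to 3 and 4 to 15, with log2 ratios of 2.24 (1.70 to 2.82) and 1.41, and Trem3 in the band of 4 to 15, with 1.41. Anxa3 was lower in the band of 0, with -1.02 (-1.56 to -0.50), and stayed so, at -0.96, without the cells high in Camp. Ms4a3 stood at 3.16, 3.23 and 4.85 CPM in the control bands of 0, 1 to 3 and 4 to 15 and at 23.8, 35.6 and 65.2 CPM in the irradiated bands. Gstm1 was lower in irradiated than in control cells of each of these bands, at 19.6 against 38.8 CPM, 32.5 against 54.9 CPM and 40.1 against 55.5 CPM. Hp in the lowest band was lower in irradiated cells, with a log2 ratio of -0.77 (-1.35 to -0.21), but 5 control cells with at least 1000 CPM of Camp held most of it: without them its control level went from 5.09 to 1.11 CPM and the log2 ratio to 1.42 (0.59 to 2.29).

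**Figure D4:**
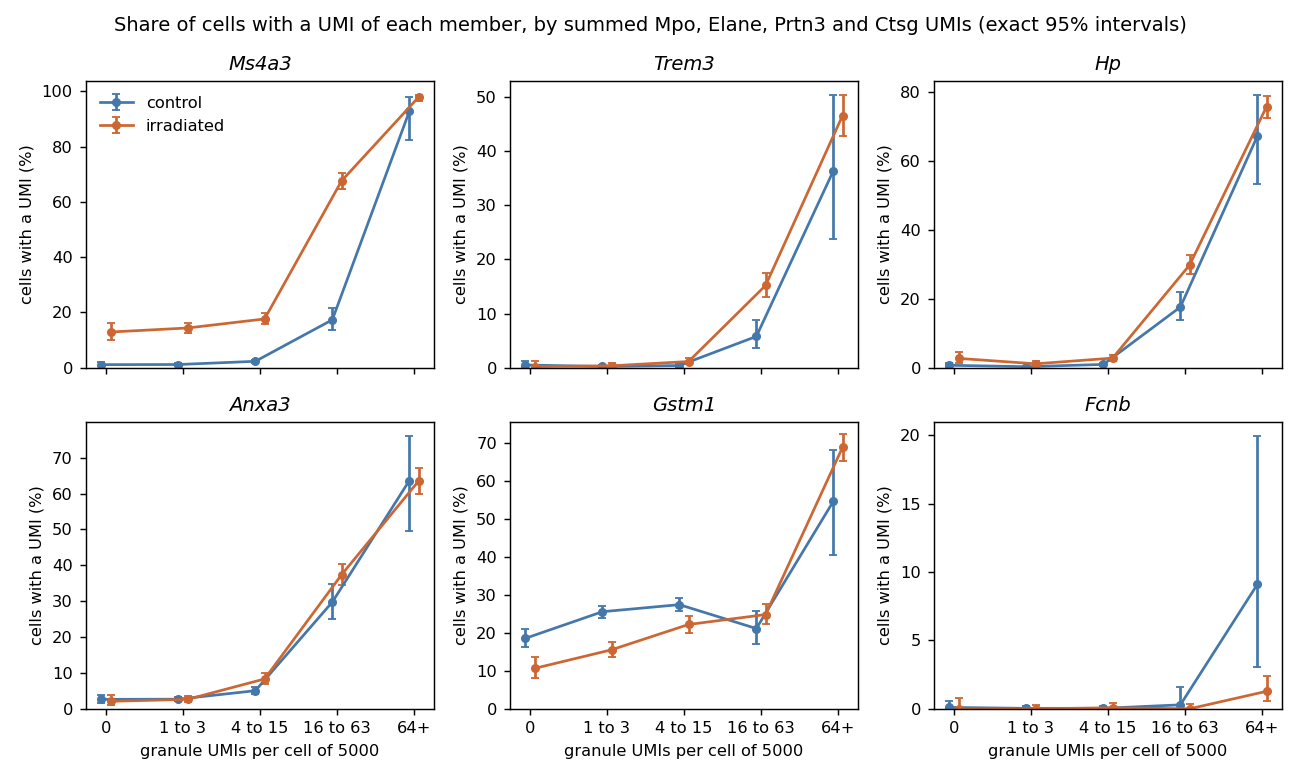
Share of thinned cells with a UMI of each gene (vertical axis, %) in 5 bands of summed Mpo, Elane, Prtn3 and Ctsg UMIs (horizontal axis, per cell of 5000 UMIs), with exact 95% intervals as bars. Ms4a3 stands higher in irradiated cells of the lower 4 bands (67.6% against 17.3% at 16 to 63) and meets the control share in the highest, Gstm1 is lower in irradiated cells of the lower 3 bands, and Fcnb is highest in control cells of the highest band (9.09%).

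Outside the neutrophil-primed and Ly6c2-led clusters Ms4a3 was higher in the irradiated library in every named class. Free RNA can give UMIs in cells that do not express a gene, and its part in these counts was not tested. In irradiated cells Ms4a3 stood at 8.15 CPM (2.65 to 19.0) in B lineage cells, a class that should lack it, 19.1 CPM (16.3 to 22.3) in lymphoid-primed, 28.4 CPM (23.0 to 34.8) in HSC-like and 33.8 CPM (30.8 to 37.0) in erythroid-primed cells. The corresponding control levels were 0.820, 0.810, 3.02 and 3.59 CPM. The neutrophil elastase gene Elane was spread in the same way over these irradiated classes, at 14.7, 20.9, 26.0 and 34.1 CPM, and was between 0 and 2.18 CPM in the control ones. At 5000 UMIs, 0 of 23 irradiated B lineage cells held a Ms4a3 UMI, which allows a share of up to 13.04%, and 6.07% of lymphoid-primed, 9.72% of HSC-like and 13.6% of erythroid-primed cells did. The median depths before thinning were 24135, 21235, 12595 and 24885 UMIs. With 23 cells that limit is wide and gives no measured background share. By level, the HSC-like and erythroid-primed intervals lie above that of B lineage cells. HSC-like cells were shallower than B lineage cells, at 12595 against 24135 UMIs, and these levels were not compared at equal depth. Whether either class stood above free RNA was not tested.

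The number of Ms4a3 UMIs relative to Elane UMIs varied between the irradiated clusters. For every 100 Elane UMIs the irradiated library held 52.0 Ms4a3 UMIs over all kept cells. The earlier, Ly6c2-led and later clusters stood at 162, 47.9 and 40.3. Lymphoid-primed cells stood at 91.4, HSC-like at 109, erythroid-primed at 99.2, megakaryocyte-primed at 340 and mast cell and basophil cells at 399. The values of 55.6 in B lineage and 133 in T and NK lineage cells rest on few UMIs (5 and 8 of Ms4a3, 9 and 6 of Elane). The unnamed irradiated clusters ran from 57.2 to 260, and the proliferating one led by Hist1h1b was at 209. In control the ratio was 27.7 over all kept cells. It was 860 in megakaryocyte-primed and 3800 in mast cell and basophil control cells, each on 5 Elane UMIs. The order of the clusters depended on the gene compared with. For every 100 UMIs of Mpo, Elane, Prtn3 and Ctsg together, the irradiated library held 6.32 Ms4a3 UMIs over all kept cells. The earlier, Ly6c2-led and later clusters stood at 5.36, 5.63 and 7.34, and lymphoid-primed and HSC-like cells at 1.55 and 3.16. Erythroid-primed, megakaryocyte-primed and mast cell and basophil cells stood higher, at 10.8, 22.9 and 20.9. Ms4a3 stood at 18.9 CPM (13.7 to 25.5) in control and 73.6 CPM (66.1 to 81.7) in irradiated megakaryocyte-primed cells, and at 69.2 CPM (59.7 to 79.8) and 163 CPM (154 to 172) in mast cell and basophil cells. The latter class also carried the megakaryocyte gene Pf4 (580 and 392 CPM) above the mast cell gene Cpa3 (241 and 191 CPM). With the marker genes left out of the clustering, 11 cells of each library met the mast cell and basophil list, so the name of this class depends on the clustering. At 5000 UMIs, 8.73% and 30.5% of megakaryocyte-primed cells, and 15.6% and 39.9% of mast cell and basophil cells, held a Ms4a3 UMI. Trem3, Hp and Anxa3 were each at most 10.6 CPM in both classes of both libraries.

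Trem3 and Hp were low outside the 3 myeloid clusters, Anxa3 was intermediate, and Gstm1 was not low. Taking all cells outside them together, Trem3 stood at 1.10 CPM among control and 5.95 CPM among irradiated cells, Hp at 2.36 and 11.6 CPM, and Anxa3 at 11.5 and 19.6 CPM. Gstm1 was lower in the irradiated library there, at 54.3 and 38.8 CPM, for a log2 ratio of -0.48 (-0.54 to -0.43). HSC-like cells went the other way for Gstm1, with a log2 ratio of 0.36 (0.20 to 0.51). Gstm1 outside the myeloid clusters held 89.1% of its control UMIs and 25.4% of its irradiated UMIs.

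Cells with several of the genes at once were also counted. The genes were chosen as higher after irradiation in these libraries, so more such irradiated cells follow from the choice. No other gene set was compared, and the shares are a description. At 5000 UMIs, 26 of 7124 control cells (0.365%) and 462 of 5069 irradiated cells (9.11%) held a UMI of at least 4 of the 6 genes. Cells with none of them made up 68.1% of control and 44.9% of irradiated cells, and 3 cells in each library held all 6. Cells with at least 4 genes were 41.2% and 53.7% of the later neutrophil-primed cluster, 7.69% and 28.5% of the Ly6c2-led cluster and 2.28% of irradiated cells of the earlier cluster, where none of 352 control cells did, which allows a share of up to 0.852%.

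**Figure D5:**
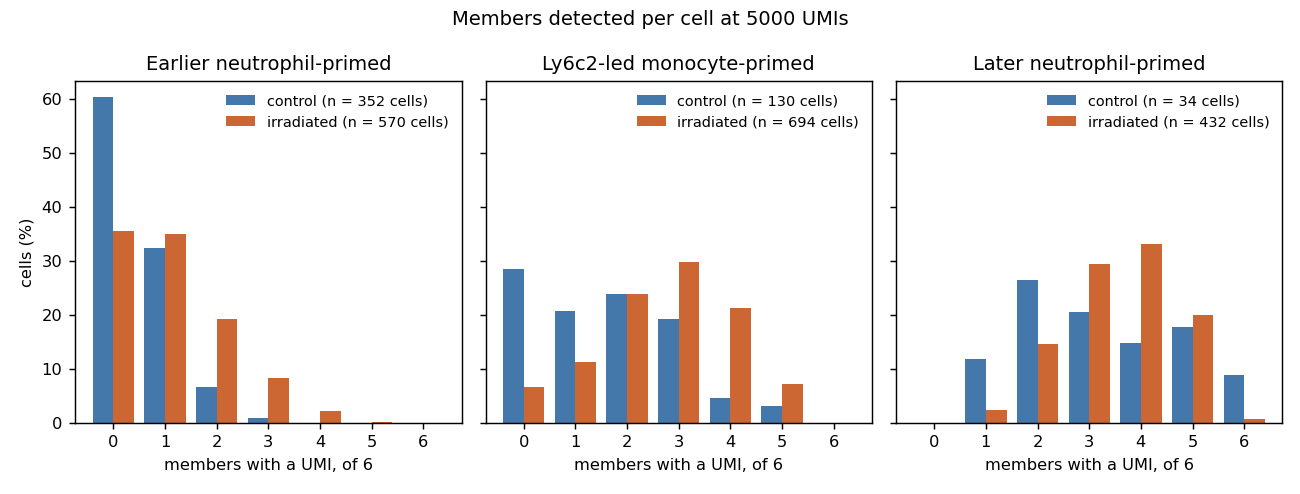
Share of thinned cells (vertical axis, %) by the number of the 6 genes with a UMI (horizontal axis) in the earlier neutrophil-primed, the Ly6c2-led and the later neutrophil-primed cluster of the control and irradiated libraries, with the numbers of cells in each panel. Cells with at least 4 genes are 7.69% of control and 28.5% of irradiated cells in the Ly6c2-led cluster, and 41.2% and 53.7% in the later cluster, where control has 34 cells.

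The 462 irradiated cells with at least 4 of the genes also carried the azurophil granule genes. A Mpo, Ctsg or Prtn3 UMI was found in 100% of them and an Elane UMI in 96.3%. Among irradiated cells with none of the 6 genes, Prtn3 was found in 71.0%, Mpo in 42.6%, Ctsg in 42.2% and Elane in 10.6%. Ly6c2, a monocyte-linked surface gene, was found in 74.0% of the 462 cells and in 5.28% of those with none. Lcn2, a later granule gene, was found in 33.8% and 0.352%, and Cebpe, a factor of terminal granulocyte differentiation, in 19.9% and 0.352%. Other genes of maturing neutrophils were rarer in the 462 cells, S100a8 at 11.04% and Camp at 0.649%. Markers of stem and lymphoid priming were rare in the 462 cells (Hlf 1.95%, Flt3 4.11%, Dntt 1.08%). Of irradiated cells with none, 17.3%, 24.5% and 29.2% held them.

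The genes of the sort were found in part of the cells at the depth used. Ly6a, which encodes Sca1, was found in 45.5% of the 462 irradiated cells with at least 4 of the genes and in 61.8% of irradiated cells with none, and Kit in 20.8% and 33.0%. In control only 11.5% (2.45 to 30.2) of the 26 cells with at least 4 of the genes held a Ly6a UMI, against 51.0% of control cells with none. Kit was found in 23.1% (8.97 to 43.6) and 45.2% of these control cells. The proliferation gene Mki67 was found in 34.6% of the 462 irradiated cells and in 39.7% of irradiated cells with none of the genes.

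Between single cells the genes went together only loosely. Across all irradiated cells at 5000 UMIs Pearson's r of log values was 0.58 for Ms4a3 with Hp, 0.50 for Ms4a3 with Anxa3, 0.47 for Ms4a3 with Trem3 and 0.38 for Ms4a3 with Gstm1. Within the later neutrophil-primed cluster the same pairs gave 0.12, 0.16, 0.18 and 0.10. These describe sparse counts of cells that share a library, and such weak values are no finding.

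Across clusters the likeness was closer. Over 32 sums of cells by cluster and library, on log2(CPM + 5), Trem3 and Hp had r = 0.98, Hp and Anxa3 0.94, and Ms4a3 with Hp 0.85, while Gstm1 with Ms4a3 gave 0.38. The genes outside the set most like Trem3 were Elane (0.95) and Msrb1 (0.94), those most like Hp were Elane (0.96) and Alas1 (0.94), and those most like Anxa3 were Mpo (0.93) and Slpi (0.93). Ms4a3 was most like Ssr2, Elane and Ssr4 (0.90 each), Gstm1 most like Mcfd2 (0.90), Mgst1 (0.87) and Lbp (0.87), and Fcnb most like S100a8 (0.92), S100a9 (0.90) and Dstn (0.69). Fcnb reached 51.0 CPM in the later neutrophil-primed cluster of control and at most 3.07 CPM in any other sum. Its r values thus rest mainly on that sum of 36 cells. The sums share libraries and come from cells of different depth.

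The genes that work alongside the set were read over all cells from fixed lists, counting members with a mean of at least 5 CPM. Of 8 azurophil granule genes, 4 were at least 2-fold higher and 0 lower, with a median log2 ratio of 1.23. Among all 9035 genes at that level 1.39% were 2-fold higher and 4.81% lower, with a median of -0.06. These 4 were Mpo (387 and 1420 CPM), Elane (93.3 and 740), Prtn3 (729 and 2455) and Ctsg (300 and 1483). Of 13 genes of the later granules and maturing neutrophils 6 were measured, 2 of them higher and 4 lower, with a median log2 ratio of -2.19. The 2 higher ones were Cybb (3.68 and 18.4 CPM) and Lcn2 (7.09 and 26.5 CPM in control and irradiated cells). Camp stood at 34.2 CPM among control and 3.23 CPM among irradiated cells, and 10 control cells held 92.6% of its control UMIs, the same skew as for Fcnb. Summed over 9 markers of mature neutrophils, none of them at 0, the control library stood at 348 CPM and the irradiated at 97.7 CPM. S100a8 and S100a9 made up most of the control sum, at 142 and 134 CPM. For each, 10 control cells held most of its control UMIs (87.9% and 87.3%). Lcn2 and Mmp8, also among the 9, went the other way, Mmp8 from 0.941 to 1.23 CPM.

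Of 10 regulators and receptors of granulocytes and monocytes, 1 was at least 2-fold higher and 1 lower, with a median of 0.22. Cebpe went from 1.86 to 11.9 CPM and Klf4, a factor linked to monocytes, from 35.1 to 15.6 CPM, while Cebpa had a log2 ratio of 0.88 (0.81 to 0.95). Of 8 monocyte genes 7 were measured and 5 of them were at least 2-fold higher, with a median of 1.86, among them Fcgr3 (3.15), Ly6c2 (2.67), Ccr2 (2.15) and F13a1 (1.86). In bulk sums such as these, more cells of a type and more RNA per cell cannot be told apart.

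Measured family members of Ms4a3, Trem3, Anxa3 and Gstm1 had smaller log2 ratios than the gene itself. The 6 genes were chosen for being higher in these data, which favours that order, so it is no finding. Below a mean of 5 CPM, Treml4 was above Trem3, at 4.07 (2.98 to 5.41) on 7 control and 139 irradiated UMIs. Gstm3, on 1 and 2 UMIs, was above Gstm1 at 0.75. Of 18 Ms4a genes other than Ms4a3, 4 were measured, all higher, with Ms4a4c at 1.52 (1.39 to 1.65), Ms4a6c at 0.82, Ms4a4b at 0.74 and Ms4a6b at 0.62. Of the TREM family and its adapters 3 of 7 were measured, and none differed 2-fold: Tyrobp, the adapter of Trem3, was at 0.54 (0.51 to 0.56), Hcst at -0.30 and Treml2 at -0.28. Of 11 annexins other than Anxa3, 7 were measured with a median of 0.09, and Anxa4 was lower at -1.43 while Anxa2 was at 0.77. Of 6 other mu class transferases 2 were measured, Gstm5 at 0.43 (0.37 to 0.50) and Gstm4 at 0.14 (-0.00 to 0.28), and among 5 other glutathione enzymes Gsr, which regenerates glutathione, was at 1.14 (1.09 to 1.18) and Gclm at 0.66. None of the 4 haptoglobin partners and none of the 5 genes of the lectin pathway besides Fcnb reached a mean of 5 CPM.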

How the data were processed

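The deposited files hold raw UMI counts per gene and barcode, 1 matrix for each of the 2 libraries, and their values are whole-number counts deposited by the authors. Per the submitters' processing notes the tools were Cell Ranger 2.1.1 with build mm10, while per the file headers the software version is 3.1.0, a disagreement that could not be settled. How reads shared by similar genes were counted is not given in the sources used here.

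A cell needed 1000 UMIs, 500 genes and no more than 10% mitochondrial UMIs, which removed 496 control and 468 irradiated barcodes. Doublets were not removed in the main values, and an alternative left out the 6% of cells with the highest doublet scores in each library. The 16 barcodes found in both libraries were kept, and an alternative left them out. UMIs were summed over cells and divided by the total of the same cells to give CPM. A ratio carries an exact Clopper-Pearson interval computed from the split of the UMIs of a gene between libraries, a level the exact Poisson interval and a share the exact Clopper-Pearson interval, all at 95% and for counting error only. Reads are not independent of their animal, and 1 library per group allows no test. For shares, 7124 control and 5069 irradiated cells were thinned to 5000 UMIs, and 66 and 59 shallower cells were left out. A share of 0 allows 3 counts of the total. Clusters came from 2000 variable genes without the 6 genes, 30 principal components, 15 neighbours from each library and Leiden resolution 1. A cluster was named when at least 3 of a class's markers stood among its top 25 genes by fold and no other class had more among its top 10. The 7 clusters that met no list stayed unnamed.

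The 6 genes and all lists were chosen with earlier results of these data known. Named genes are the 6, the 3 most alike of each by Pearson correlation, and up to 4 genes with the largest ratio of each list. Alternatives covered the cell filters, the weighting of cells, clustering and naming settings, and, chosen after seeing the data, single clusters, the shared barcodes and cells high in Camp. The ratio code was tested on simulated data. Python 3.11.15, numpy 2.4.6, scipy 1.17.1, scanpy 1.11.5 and leidenalg 0.10.2 were used.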

Additional observations from a re-analysis of the deposited data

Results flagged for a closer look

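Hp, the haptoglobin gene, differed between libraries in opposite directions in clusters of the same lineage. Its log2 ratio of irradiated over control was -0.36 in the later neutrophil-primed cluster, 1.38 in the earlier one and 0.75 in the Ly6c2-led cluster, so that the later cluster stood -1.74 from the earlier and -1.11 from the Ly6c2-led one. Its ratio in the highest granule band was 0.97 above that in the lowest band (0.19 and -0.77). Without the cells with at least 1000 CPM of Camp, Hp was at 0.15 (-0.03 to 0.33) in the later cluster and at 1.42 in the lowest band, so neither opposite sign remained.

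Anxa3 was also lower in the later cluster (-0.34) and higher in the earlier (0.35) and Ly6c2-led (0.37) ones, which puts the later cluster -0.69 and -0.71 from them. Without the cells high in Camp it was at -0.35 in the later cluster, where control then has 26 cells.

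Gstm1 was lower in irradiated cells without granule UMIs (-0.98) and higher in those with the most (0.76), a difference of 1.75. With 1 library per group none of these differences between clusters or bands was tested, and their intervals cover counting error only.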

How the results depend on the processing

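Over all cells the number of genes at least 2-fold higher stayed between 4 and 5 under 8 alternatives, and no log2 ratio of Ms4a3 (3.74 to 4.33), Trem3 (3.13 to 3.61), Hp (2.78 to 3.38), Anxa3 (1.76 to 2.20) or Gstm1 (0.39 to 0.79) changed sign. Fcnb ran from -0.32 to 3.15, the latter without the 10 cells that held the most of it in each library. Only 14 control cells held any Fcnb, against 52 irradiated cells, so that setting took away most of the control ones. The count of 4 in the neutrophil-primed class is not stable, since it follows which cells enter the class. It was 0 with all deposited barcodes, where 83 control and 880 irradiated cells made up the class, 2 at Leiden resolution 0.5, 2 with 30 neighbours drawn from all cells, 0 in the later cluster alone and 0 in that cluster without cells high in Camp. It was within 1.5 times of 4 under the other 10 of 15 alternatives. Reversed in that class were Hp with all barcodes (-0.067), Trem3 and Hp in the later cluster alone (-0.22 and -0.36), and Trem3 there without cells high in Camp (-0.059). Anxa3, below 2-fold in the class, went below 0 under the same 3 settings. Leaving out the 16 shared barcodes kept all 3 counts. In the highest granule band the count of 0 became 1, for Gstm1 (1.18), when the 10 cells with the most UMIs of each gene were left out of each library, and was 0 under 8 other alternatives. That setting took 10 of 55 control cells but 10 of 704 irradiated cells, so it lowered the control level more by its design. A gene with 0 UMIs in control has no ratio and was not counted. No paired analysis was possible because each group has 1 library. The 55 control cells of the highest band and the 36 of the later cluster set the precision of the values there, and Fcnb, at 64 and 79 UMIs, cannot be followed in most classes.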
